A study of Malus domestica with 16 samples.

Results

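Peel of 'Granny Smith' apples treated with 1-methylcyclopropene (1-MCP) was compared with peel of untreated fruit (Control) after cold storage, at the stage that the study calls presymptomatic for superficial scald, although it also describes some symptoms in fruit without 1-MCP at that time. The comparison rests on 2 two-colour arrays that hold 4 of the 16 labelled samples of the series, namely 1-MCP A and Control A on the array of replicate A, and 1-MCP B and Control B on the array of replicate B. Both arrays lay on the same slide. The dyes were switched between the replicates (1-MCP carried Cy3 on array A, Cy5 on array B), so dye and replicate cannot be told apart, and every ratio below was turned to 1-MCP over Control. All fruit were of the wild-type cultivar, labelled as full ripe at harvest, where the methods say physiologically mature, and kept in cold storage at 0 °C for 6 months with a relative humidity of 95%. The 1-MCP fruit had been exposed for 24 h to 1000 ppm of the gas according to the labels, whereas the methods of the study name another dose. Each sample pooled the peel of 7 apples. The ozone groups used for comparison, O3 and 1-MCP+O3, were stored in air enriched with 0.3 μl/L ozone, the latter after the same 1-MCP treatment.

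1-MCP is a gas that occupies the ethylene receptors of plants and keeps ethylene from binding, and it is used on apples to delay ripening. Superficial scald is a browning of the peel that appears after long cold storage and is held back by 1-MCP. Apple peel of a green cultivar is a photosynthetic tissue that is covered by a waxy cuticle, loses chlorophyll as the fruit ripens and softens as pectin and xyloglucan in its walls are remodelled.

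The array carries 59208 sense probes, one for each apple gene model with the prefix MDP, and each probe reports the abundance of the transcript of that model. Between 42.8% and 49.4% of the spots were well above background in each of the 4 samples, and 35709 sense probes were so in at least 1 channel of both arrays. Over all sense probes the ratios of arrays A and B had a Pearson r of 0.465 and a Spearman rho of 0.11. The points of that correlation are probes, which share the arrays and are not independent replicates. The median log2 ratio over all of them was 0.01. Of the 32 probes for cuticle, wax and fatty acid synthesis, functions of the fruit epidermis, 30 were well above background in all 4 samples. Among all sense probes 30591 were so. The 32 were drawn from 1477 annotated probes that the study chose for change on these arrays, of which 1296 were so. The count is therefore not a test of the tissue.

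A probe was called when limma gave an unadjusted p under 0.01, the threshold that the study used. By this rule 2744 sense probes were called, 4.63% of all, of which 1340 were higher (2.26%) and 1404 lower (2.37%) in 1-MCP. Among the 35709 probes above background on both arrays, 7.68% were called, 3.75% higher and 3.93% lower. No probe passed the Benjamini-Hochberg adjustment in limma. The adjusted p of called probes ran from 0.181 to 0.326, and 7232 sense probes had an unadjusted p under 0.05. A called probe is therefore one whose ratio was large beside the difference between its arrays, and in this fit no single gene below passed a correction for the number of probes. The adjusted count depended on the fit, from 0 here to 3271 sense probes in a joint fit of all arrays with a dye term. All 2744 called probes had the same sign on both arrays. With 1 pool of fruit per sample, the p-values measure only the spread between these samples.

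**Figure D1:**
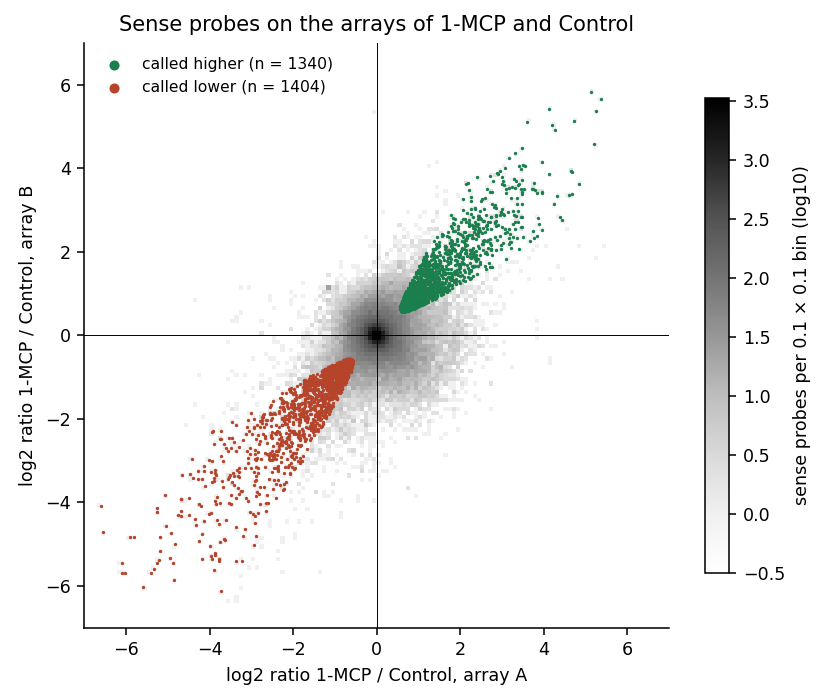
Log2 ratio of 1-MCP over Control on array A (horizontal axis) against array B (vertical axis) for the sense probes. Grey shades count all probes in bins of 0.1 on a log10 scale, and green and red points are the 1340 probes called higher and the 1404 called lower, which lie in opposite quadrants along the diagonal because the call asks for similar ratios on both arrays.

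The called rises had a median log2 ratio of 1.24, with quartiles at 0.89 and 1.87, and 294 of them rose at least 4-fold. The called falls had a median of -1.32, and 370 fell at least 4-fold. Changes of at least 16-fold were found in 15 rises and 59 falls. In the median called rise the normalized log2 signal was 7.80 in Control and 9.48 in 1-MCP, and in the median called fall it was 9.46 in Control and 7.64 in 1-MCP. In 112 of the rises neither Control sample was well above background, and in 156 of the falls neither 1-MCP sample was, so the ratio of such a probe is only a bound.

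Functions were taken from the names that the study's annotation table gives to apple gene models, which are mostly names of their closest Arabidopsis genes. Of the rows of that table used here, 1477 were sense MDP probes and 1122 of these carried a function. They covered 1190 (88.8%) of the rises but 11 (0.783%) of the falls, so the account of functions below is one of the rises, and the falls are named only where the text, network legend, transcription factor list or RT-qPCR targets of the study name them. The study chose these rows because they changed on these same arrays, so the counts for each function are a description and are not independent evidence of a direction. Together, 582 probes fell into 29 lists of functions. Of these, 493 were called higher and 5 lower, with a median log2 ratio of 1.29. Among the 1477 rows from which the lists were drawn, 1190 were called higher and 11 lower, with a median of 1.19. Among all sense probes 2.26% were called higher, with a median of 0.01. The count of each list below is to be read beside that of the 1477 rows. A smaller share than in these rows was called higher for chlorophyll breakdown, light signalling, auxin, abscisic acid, resistance proteins and transcription factors.

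**Figure D2:**
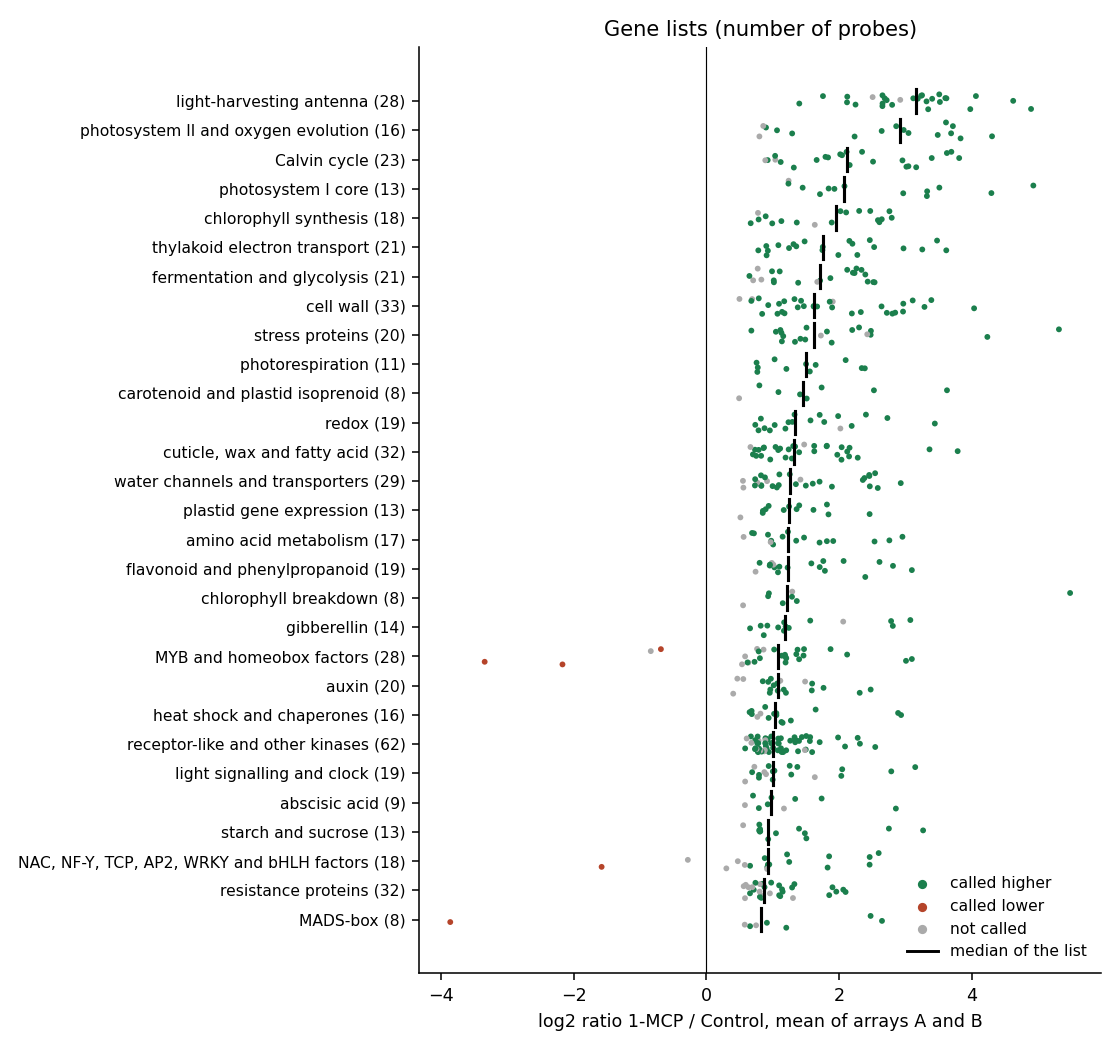
Log2 ratio of 1-MCP over Control (mean of arrays A and B, horizontal axis) for each probe of the 29 lists, ordered by the median of the list (black bar) and with the number of probes in brackets. Green points were called higher, red lower, and grey points were not called, and the probes of the light-harvesting antenna lie farthest to the right as a list, with a median of 3.15.

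Of the 10 largest rises, 5 were in genes of chloroplast proteins. The 10 largest ran from a log2 ratio of 4.31 to 5.52, a 19.8- to 45.9-fold increase. TIC55 (MDP0000150374), a Rieske protein of the inner chloroplast envelope, had a log2 signal of 11.29 and 11.45 in 1-MCP A and B, and of 6.15 and 5.63 in Control A and B. Neither Control sample was well above background, and the rise was at least 41.1-fold. A universal stress protein (MDP0000142824) gave 13.64 and 13.55 in 1-MCP against 8.38 and 8.18 in Control, a log2 ratio of 5.31 ± 0.09 (SD, n = 2 arrays). Universal stress proteins are small proteins of stress responses, and of the 10 this one had the lowest SD.

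A putative thaumatin (MDP0000124752), a family that includes pathogenesis-related proteins of fruit, had signals of 11.37 and 12.26 in 1-MCP and of 7.24 and 6.83 in Control, and rose by 4.78 ± 0.92. The other members of the 10 with a function were photosynthetic, namely PSAG, LHCA1, LHCA3 and a PsbW protein (MDP0000281971). The largest rise of all, 5.52 ± 0.21, was in a model annotated as an unknown protein (MDP0000196174), with 12.85 and 12.88 in 1-MCP against 7.48 and 7.21 in Control. In these genes the signals of 1-MCP and Control did not overlap, which follows from their choice as the largest called rises.

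Photosynthesis in the thylakoid starts at antenna proteins that hold chlorophyll, passes to photosystems II and I, and runs through an electron transport chain that drives the Calvin cycle in the stroma. Taken over these 5 lists, 94 of 101 probes were called higher, and every one was higher on both arrays, and the lowest log2 ratio on an array was 0.61. The mean ratio was at least 2-fold in 92 of the 101, called or not, and at least 8-fold in 37.

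Antenna proteins had the highest median, 3.15, and 26 of 28 probes were called higher. Both Control samples were above background for 18 of these probes, and 7 of the ratios are bounds, as are 5 of 13 for photosystem I. With each such probe at its bound the antenna median was again 3.15. A bound can equal the measured ratio, so this does not show how far the background matters. LHCA1 (MDP0000259706), which binds chlorophyll beside photosystem I, had a log2 signal of 13.90 in 1-MCP A and 13.38 in 1-MCP B, and of 8.69 in Control A and 8.80 in Control B. Its log2 ratio was 4.89 ± 0.45 (SD, n = 2 arrays). LHCB5 (MDP0000943426), a minor antenna protein of photosystem II, rose by 4.06 ± 0.14. CAB1 and LHB1B1, the major antenna proteins of photosystem II, had larger ratios on array A than on array B. CAB1 (MDP0000182265) had ratios of 4.60 and 3.36, and LHB1B1 (MDP0000417929) of 4.45 and 2.75. Apple has many near-identical copies of these genes, and their probes may share signal.

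Photosystem I showed the same direction. Among its subunits, 12 of 13 probes were called higher, with a median of 2.08. PSAG (MDP0000148121) had signals of 13.32 and 13.56 in 1-MCP and of 8.58 and 8.44 in Control, a log2 ratio of 4.93 ± 0.28. PSAD-2 (MDP0000700880), on the side of the complex where ferredoxin docks, rose by 4.30 ± 0.50 and PSAN (MDP0000655277) by 3.32 ± 0.05.

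Of the photosystem II and oxygen-evolving proteins, 14 of 16 probes were called higher, with a median of 2.92. The extrinsic proteins that hold the manganese cluster rose together. PSBO-2 (MDP0000248920) rose by 3.69 ± 0.78, PSBP-1 (MDP0000361338) by 3.49 ± 0.15 and PSBQ-2 (MDP0000715912) by 2.97 ± 0.01. A further model annotated to the PsbQ family (MDP0000481445) rose by 2.23 ± 0.26.

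All 21 probes for thylakoid electron transport were called higher, with a median of 1.75. NPQ4 (MDP0000289661), the PsbS protein that starts the dissipation of excess light as heat, rose by 3.62 ± 0.15. CRR7 (MDP0000126450) and NDH-M (MDP0000557856), which belong to the cyclic route through the NDH complex, rose by 3.48 ± 0.03 and 1.48 ± 0.27. PGR5, of the other cyclic route, rose by 1.75 on both of its probes, MDP0000236916 and MDP0000828736. Leaf ferredoxin-NADP reductase, which makes the NADPH, rose by 3.25 ± 0.16 (ATLFNR1, MDP0000811918).

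In the Calvin cycle 21 of 23 probes were called higher, with a median of 2.11. Phosphoribulokinase (PRK, MDP0000322896), which regenerates the acceptor of CO2, had log2 signals of 10.85 and 11.23 in 1-MCP and of 7.29 and 7.17 in Control, a rise of 3.81 ± 0.35. Rubisco activase (RCA) rose on its 3 probes, by 3.16 to 3.69. A small subunit of Rubisco (MDP0000185022) rose by 3.01 ± 0.01. The photorespiratory enzymes, which recover the carbon lost when Rubisco takes up oxygen, rose on all 11 probes with a lower median of 1.50, among them glycolate oxidase (MDP0000706975, 2.39 ± 0.49) and SHM1, a serine hydroxymethyltransferase, on 4 of 4 probes.

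Pigment genes are given in lists for the making and the breaking of chlorophyll. For chlorophyll synthesis 16 of 18 probes were called higher, with a median of 1.95. They run from HEMA1 (MDP0000234947), which makes the first committed precursor and rose by 0.79 ± 0.10, through GUN5 (MDP0000294642), the subunit of magnesium chelatase that binds the porphyrin and rose by 2.64 ± 0.15, to protochlorophyllide reductase (PORA, MDP0000831656), which rose by 2.79 ± 0.09. For PORA the log2 signals were 9.82 and 9.93 in 1-MCP and 6.96 and 7.20 in Control.

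Of the 8 probes for chlorophyll breakdown, 6 were called higher and none lower, with a median of 1.22. This is close to the 1477 rows, of which 1190 were called higher, with a median of 1.19. TIC55 led the breakdown list, since it also hydroxylates breakdown products of chlorophyll in Arabidopsis. ACD1 (MDP0000315206), the pheophorbide a oxygenase that opens the chlorophyll ring, rose by 0.94 ± 0.20, and 4 of 5 ACD1-like probes rose, up to 1.36. ATCLH2 (MDP0000126175), a chlorophyllase, was not called at 0.55 ± 0.21.

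Plastid isoprenoids include the carotenoids and the quinones of electron transport, and 7 of 8 probes were called higher. Phytoene synthase (PSY, MDP0000261447), the entry into carotenoids, rose by 1.51 ± 0.35. ABC4 (MDP0000156263), which makes the phylloquinone of photosystem I in Arabidopsis, rose by 3.63 ± 0.17, and APG1 (MDP0000659245), a methyltransferase of plastoquinone and tocopherol synthesis, by 2.52 ± 0.19. NCED4 (MDP0000769041), named for the cleavage of carotenoids, rose by 1.74 ± 0.26. Among 13 genes that transcribe and process plastid RNA, 12 were called higher, led by PTAC16 (MDP0000880187, 2.46 ± 0.06) and the sigma factor SIGA (MDP0000939377, 1.84 ± 0.20).

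Genes of light signalling and the clock rose less, with a median of 1.00 and 14 of 19 called. PKS1 (MDP0000371681), a substrate of phytochrome, had log2 signals of 10.86 and 10.42 in 1-MCP against 7.39 and 7.59 in Control and rose by 3.15 ± 0.46. A B-box zinc finger protein (MDP0000185616) rose by 2.79 ± 0.08. COP1 (MDP0000131371), a ubiquitin ligase that represses light responses, rose by 1.00 ± 0.25, and the clock gene TOC1 (MDP0000147546) was not called, at 1.63 ± 0.63.

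Outside the photosynthetic membrane, the lists of primary metabolism covered the handling of sugars, fermentation and amino acids, among them asparagine. Of the probes for starch and sucrose, 12 of 13 were called higher, with a median of 0.93, below the 1.19 of the 1477 rows. ATGOLS4 (MDP0000209143), a galactinol synthase of the raffinose route, rose by 3.27 ± 0.78, and GPT2 (MDP0000281626), which carries glucose 6-phosphate into plastids, by 2.75 ± 0.60. All 5 starch synthase probes rose, by 0.81 to 1.51.

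For fermentation and glycolysis 17 of 21 probes were called higher, a share near that of the 1477 rows, of which 1190 were. Alcohol dehydrogenase (ADH1), which turns acetaldehyde into ethanol, was called higher on all 13 of its probes, at 0.99 to 2.53. The probe with the largest ratio (MDP0000491737) had log2 signals of 14.96 and 14.96 in 1-MCP and of 12.60 and 12.26 in Control. Such repeated models may share signal, so the 13 are not separate observations. Pyruvate decarboxylase (MDP0000138249), the step before it, was not called at 0.77 ± 0.33. The glycolytic enzyme GAPC (MDP0000293407) rose by 1.38 ± 0.27. Of 3 pyruvate kinase probes, 1 was called higher (MDP0000189697, 1.02 ± 0.07), and the lowest ratio was 0.70.

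For amino acids, 15 of 17 probes were called higher. ASN1, an asparagine synthetase induced by darkness in Arabidopsis, rose on its 4 probes by 1.70 to 2.95. On the first of these (MDP0000125407) the log2 signals were 9.73 and 9.88 in 1-MCP and 6.96 and 6.74 in Control. An asparaginase (MDP0000658649), which acts in the opposite direction, rose by 2.53 ± 0.09.

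Flavonoid and phenylpropanoid genes were called higher on 16 of 19 probes, with a median of 1.22. MYB111 (MDP0000793261), a regulator of flavonol synthesis in Arabidopsis, had log2 signals of 10.66 and 10.05 in 1-MCP and of 7.31 and 7.20 in Control, and rose by 3.10 ± 0.35. Downstream, flavonol synthase (FLS) rose on 3 of 3 probes, by 0.95 to 1.79, and dihydroflavonol 4-reductase (DFR) on 5 of 5, by 0.80 to 2.81. TT7 (MDP0000616265), the flavonoid 3′-hydroxylase, was below background in both Control samples and rose at least 5.12-fold. Another model of that name was not called, at 0.74. A model of chalcone synthase (CHS, MDP0000432621), the first committed enzyme of the route, was lower in 1-MCP, but lost its call when either array was left out. That probe was above background only in Control, where the signals were 6.83 and 7.15 against 6.00 and 6.17, a fall of at least 1.88-fold.

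The cuticle list holds enzymes that elongate, reduce and hydroxylate fatty acids for wax and cutin, and 30 of its 32 probes were called higher, with a median of 1.32. Putative acyl CoA reductases, which make wax alcohols, rose on 4 of 4 probes, by 1.81 to 3.79. For the first (MDP0000271686) the log2 signals were 11.93 and 12.21 in 1-MCP against 8.43 and 8.13 in Control. CUT1 (MDP0000392495), which elongates very long chain fatty acids, rose by 2.04 ± 0.21, and CER1, which makes alkanes, rose on 3 of 3 probes by 0.86 to 1.29. Hydroxylases of the CYP86 family were called on 4 of 5 probes. Of the MYB regulators of wax synthesis known from Arabidopsis, MYB96 (MDP0000403071) rose by 1.40 ± 0.17, MYB94 (MDP0000149535) by 1.19 ± 0.37 and MYB16 (MDP0000278681) by 0.79.

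Cell wall genes rose and fell. In the list from the annotation table, 30 of 33 probes were called higher, with a median of 1.62. FLA2 (MDP0000904458), a fasciclin-like arabinogalactan protein, had log2 signals of 12.41 and 11.36 in 1-MCP and of 7.73 and 7.98 in Control, a rise of 4.04 ± 0.92. Xyloglucan endotransglucosylases named as xyloglucosyl transferases, which cut and rejoin xyloglucan, rose on 4 of 4 probes by 2.64 to 3.39. Inhibitors of pectin methylesterase and invertase rose on 4 of 5 probes, up to 3.11, and β-galactosidases of the BGAL3 and BGAL8 types on 6 of 6, by 0.79 to 2.72.

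Of the wall genes that the study measured by RT-qPCR, MdBGal1 and MdPME2 had the opposite direction and MdEXLA did not. The study chose its targets because they changed in multiple comparisons of this series, so their calls are not independent evidence. MdBGal1 (MDP0000416548), another β-galactosidase, which takes galactose off wall polymers as fruit soften, had log2 signals of 8.17 and 8.32 in 1-MCP and of 11.93 and 12.34 in Control. It fell by 3.89 ± 0.19 on the log2 scale, 14.9-fold. MdPME2 (MDP0000222620), a pectin methylesterase, fell by 1.49 ± 0.13, with 8.67 and 8.74 in 1-MCP and 10.07 and 10.31 in Control. The β-galactosidases thus differed in direction by gene model. MdEXLA (MDP0000568045), an expansin-like gene, rose by 1.33 ± 0.12, from 9.21 and 9.45 to 10.62 and 10.70, and so did another model with the same annotation (MDP0000126245), by 3.29 ± 0.86. MdSLC (MDP0000877937), annotated as an anion exchange protein, rose by 1.70 ± 0.52.

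The probe sequences of the array were not among the sources used here. Primers of 5 called RT-qPCR targets are shown, 5′ to 3′ and unmarked, because they are the designed sequences behind these names. They were not aligned to the gene models here.
MdBGal1 forward: tcaggtaccacattcctcgat
MdBGal1 reverse: aaccaacgaaatccttgacg
MdPME2 forward: ttgaaagttgtgctgccatc
MdPME2 reverse: gacgtgccgaagaaaaagac
MdEXLA forward: ccatgtgagtacaagaaccaaaa
MdEXLA reverse: accgtggtttcgagatagga
MdFQR1 forward: gcataagttcccgcaccata
MdFQR1 reverse: ccgctggaattttctacagc
MdSLC forward: agcgggagatgagtaggaca
MdSLC reverse: ttccttggatgatgctgttg

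Stress proteins were called higher on 18 of 20 probes, with a median of 1.62. After the universal stress protein described above, the largest rise was that of ATDI21 (MDP0000324831), a drought-induced protein, which had log2 signals of 12.77 and 12.06 in 1-MCP and of 7.93 and 8.43 in Control. Metallothionein-like proteins, which bind metals through cysteines, rose on 3 of 3 probes by 1.42 to 2.48. A dehydrin (MDP0000529003) had ratios of 3.11 and 1.74 and was not called. Among heat shock proteins and chaperones 14 of 16 probes were called, with a median of 1.04. HSP21 (MDP0000214382), a small chaperone of plastids, rose by 2.93 ± 0.18, from 8.58 and 8.52 to 11.39 and 11.58. The model MDP0000574524 rose by 1.27 ± 0.06. It is annotated as a small heat shock protein of class I, whereas the text of the study gives it another name.

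Redox proteins were called higher on 18 of 19 probes, with a median of 1.33. A glutaredoxin (MDP0000615196), which reduces disulphides with glutathione, had log2 signals of 10.94 and 11.54 in 1-MCP against 7.99 and 7.60 in Control and rose by 3.44 ± 0.70. Thioredoxins rose on 6 of 6 probes, by 0.82 to 2.19, and the plastid protein CDSP32 (MDP0000740655) by 2.40 ± 0.22. The glutathione S-transferase ATGSTU19 (MDP0000138709) rose by 1.57 ± 0.04. Of the 8 transferase and In2-1 models that the study names, 2 were called lower and 6 were not called. A GSTU8 model (MDP0000178304) fell by 3.89 ± 1.06 and GSTF8 (MDP0000256360) by 1.25 ± 0.16. The other GSTU8 models that the study names were not called. In its whole network legend, 15 of 19 models were not called. MdFQR1 (MDP0000393227), a flavodoxin-like quinone reductase, had log2 signals of 10.07 and 9.94 in 1-MCP against 13.36 and 13.74 in Control and fell 11.6-fold.

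Of the hormone genes, ERS1 (MDP0000242413) stands nearest to the treatment, since it encodes an ethylene receptor, the type of protein to which 1-MCP binds. Its log2 signals were 7.00 and 7.22 in 1-MCP and 10.001 and 10.40 in Control, and it fell by 3.09 ± 0.13. An ethylene response factor (MDP0000127134) fell by 2.59 ± 0.86, and another (MDP0000932292) was not called, at 0.47 ± 0.70.

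Gibberellin genes were called higher on 13 of 14 probes, with a median of 1.18. They include both arms of the pathway's switch, the F-box protein SLY1, which marks DELLA repressors for breakdown, on 6 of 6 probes at 0.86 to 1.24, and the DELLA genes RGL1 (MDP0000288971, 0.82 ± 0.12) and RGL2 (MDP0000181482, at least 1.58-fold, with Control below background). GASA4 (MDP0000232908), a small cysteine-rich protein induced by gibberellin, rose by 3.07 ± 0.50, from 7.21 and 7.34 to 9.93 and 10.76.

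For auxin 15 of 20 probes were called higher, with a median of 1.07. AMI1, an amidase that releases auxin from its amide, rose on 5 of 5 probes by 0.93 to 2.48. Of the response factors, ARF18 (MDP0000634433) rose by 1.59 ± 0.16, whereas ARF4 (MDP0000225980) and ARF9 (MDP0000194603) were not called at 0.56 and 0.40. For abscisic acid 7 of 9 probes were called. A protein phosphatase 2C (MDP0000292157), of the class that holds the signal back, rose by 2.86 with log2 signals of 9.24 and 9.18 against 6.39 and 6.32, and OST1 (MDP0000168341), a kinase that carries the signal forward, by 1.34 ± 0.23.

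**Figure D3:**
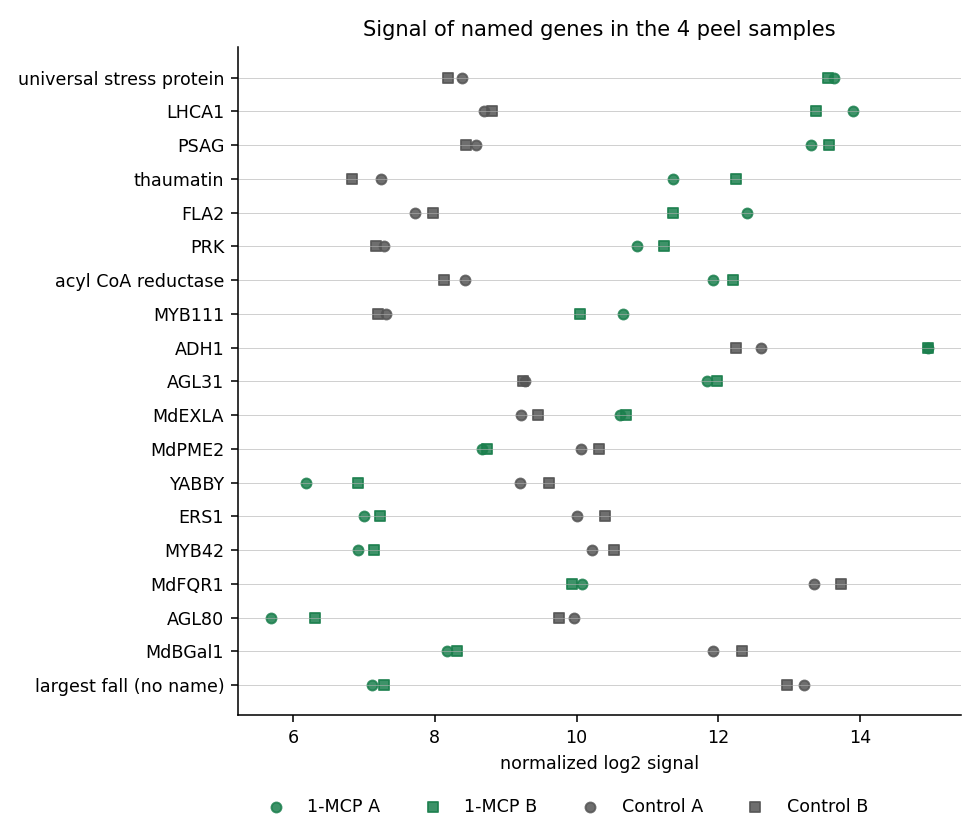
Normalized log2 signal (horizontal axis) of 19 named genes in the 4 samples, with green for 1-MCP, grey for Control, circles for replicate A and squares for replicate B. All 19 were picked from called genes, and in each the pair of 1-MCP signals lies wholly above or below the pair of Control signals. Examples are LHCA1 with 13.38 and 13.90 against 8.69 and 8.80, and MdBGal1 with 8.17 and 8.32 against 11.93 and 12.34.

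All 5 list probes that were called lower were transcription factors, but only 11 of the 1404 falls had an annotation from which a list could be drawn. Of the MADS-box genes 5 of 8 were called higher and 1 lower. AGL31 (MDP0000280712) had log2 signals of 11.84 and 11.98 in 1-MCP against 9.27 and 9.25 in Control, a rise of 2.65 ± 0.12. AGL8 (MDP0000289836), the relative of the Arabidopsis fruit gene FRUITFULL, rose by 2.47 ± 0.27, and another model of that name was not called, at 0.75. AGL80 (MDP0000212925), which acts in the female gametophyte of Arabidopsis, was below background in 1-MCP at 5.68 and 6.31, stood at 9.97 and 9.75 in Control, and fell at least 14.5-fold.

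Among the 28 MYB and homeobox factors 19 were called higher and 3 lower. The homeobox genes ATHB16 (MDP0000859459), ATHB13 (MDP0000423596) and ATHB6 (MDP0000564897), of a family with roles in light and abscisic acid responses, rose by 3.01 ± 0.42, 2.12 ± 0.02 and 1.87 ± 0.52. All 3 falls were MYB genes. MYB42 (MDP0000787808), which activates lignin genes in Arabidopsis, had signals of 6.91 and 7.15 in 1-MCP against 10.21 and 10.53 in Control and fell by 3.34 ± 0.06, and a second model of that name (MDP0000602739) fell at least 4.50-fold. MYB61 (MDP0000601420) fell by 0.69 ± 0.05.

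In the list of NAC, NF-Y, TCP, AP2, WRKY and bHLH factors 12 of 18 probes were called higher and 1 lower. XND1, a NAC protein that restrains xylem differentiation in Arabidopsis, rose on 3 of 3 probes by 0.93 to 2.46. An NF-YA subunit (MDP0000183865) rose by 2.60 ± 0.35 and a bHLH factor (MDP0000137325) fell by 1.58 ± 0.20. Of the 32 models in the study's own list of transcription factors, 9 were called higher and 12 lower. Among all sense probes 2.26% and 2.37% were. The study built its network from genes that changed in comparisons that include this one, so the counts of this list are not independent evidence. The falls outside the families above included a YABBY factor (MDP0000261432), with 6.18 and 6.92 in 1-MCP against 9.20 and 9.61 in Control, an LBD factor (MDP0000155138, -2.11 ± 0.61) and a mini zinc finger (MDP0000253357, -1.30 ± 0.02).

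Transport and surface proteins made up the rest of the named functions. Of the water channels and transporters 24 of 29 probes were called higher, with a median of 1.26. Proton-dependent oligopeptide transporters rose on 6 of 7 probes, up to 2.93, the aquaporin NIP1;2 on 3 of 3 and the tonoplast aquaporin GAMMA-TIP (MDP0000561026) by 2.58 ± 0.58. The largest list, 62 receptor-like and other kinases, had 52 called higher and a median of 1.00, with BAM1 (MDP0000618819), a leucine-rich repeat receptor of meristem signalling, at 2.54 ± 0.16. Among 32 resistance proteins 22 were called higher with a median of 0.87, and a model of the NBS-LRR class (MDP0000825919) rose by 2.06 ± 0.16.

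Genes that the study names for browning and for the α-farnesene route, or measured by RT-qPCR, gave mixed results on these arrays. FPS2 (MDP0000198736), named for farnesyl diphosphate synthase, which makes the precursor of farnesene, fell by 1.39 ± 0.41, with signals of 7.84 and 7.55 in 1-MCP and of 8.94 and 9.23 in Control. The next 3 genes were not called. The polyphenol oxidase PPO (MDP0000699845), an enzyme of browning, had log2 signals of 10.80 and 8.78 in 1-MCP against 14.01 and 14.56 in Control. Its groups did not overlap, but the ratios of -4.50 ± 1.82 differed between arrays and the unadjusted p in limma was 0.012. MdAFS1 (MDP0000199152), the synthase of α-farnesene, had 11.23 and 14.12 in 1-MCP against 15.53 and 15.12 in Control, a ratio of -2.65 ± 2.33 in which a saturated spot makes the signal a limit. MdPOX (MDP0000209189) had opposite signs on the arrays, 1.01 on A and -2.18 on B.

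The 10 largest falls, from -5.36 to -5.90, had no name in the sources used here. They had high signals in Control, between 11.1 and 15.6, and between 5.69 and 10.5 in 1-MCP. The probe with the highest signal had a saturated spot, so its ratio of -5.63 and its rank are limits, and 2 others were above background in 3 of the 4 samples. The largest, MDP0000326576, stood at 13.21 and 12.97 in Control and at 7.11 and 7.27 in 1-MCP, a 59.7-fold fall.

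Each gene model also has an antisense probe, which reads the opposite strand. Over the whole array 1.31% of antisense probes were called, 0.594% higher and 0.719% lower. Among the 1340 rises the antisense probe was called higher in 137 (10.2%) and lower in 1, and among the 1404 falls it was called lower in 186 (13.2%) and higher in 3. The antisense ratio had the direction of the sense ratio on both arrays in 60.5% of the rises and 65.2% of the falls, beside 23% and 25% of all antisense probes higher and lower on both arrays. The median antisense log2 ratios were small, 0.14 beside the rises and -0.18 beside the falls. The antisense probe of CAB1 (MDP0000468881) rose by 3.26 and those of all 4 xyloglucosyl transferases were called higher. The model of GAMMA-TIP was the one rise whose antisense probe was called lower, at -3.08. Both strands share the arrays, and whether antisense probes take up signal of the sense strand was not tested.

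**Figure D4:**
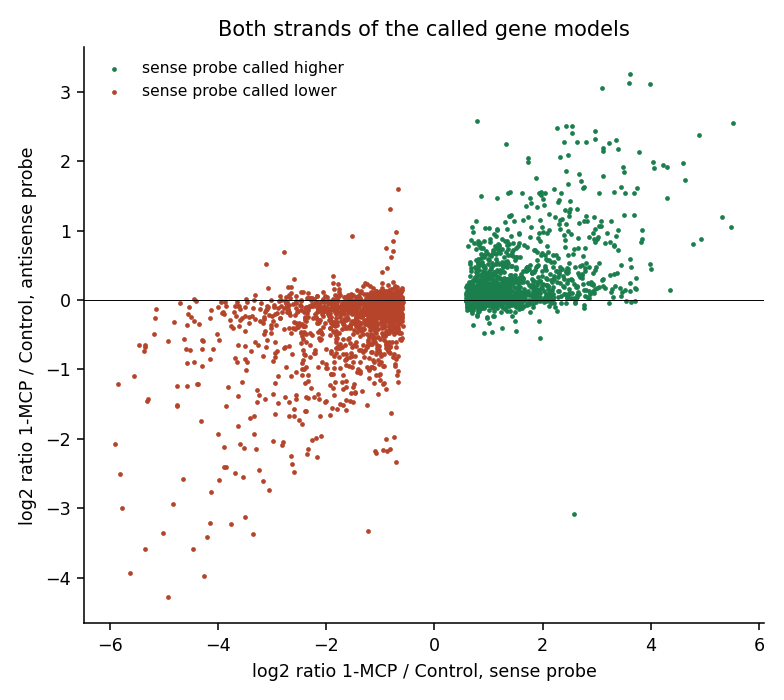
Log2 ratio of 1-MCP over Control of the sense probe (horizontal axis) and of the antisense probe of the same gene model (vertical axis) for the 2744 called models. Most points lie near an antisense ratio of 0 (medians 0.14 for rises in green and -0.18 for falls in red), and the green point at -3.08 is GAMMA-TIP.

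Whether 1-MCP acted in the same way in an ozone atmosphere was asked with 2 further arrays, 1-MCP+O3 against O3, which share no extract with the arrays above and on which 3.09% of sense probes were called. They lay on another slide, so ozone and slide cannot be told apart. Of the 1340 rises, 500 (37.3%) were also called higher in ozone, where 1.38% of all sense probes were, and they made up 61.3% of the ozone rises. Of the 1404 falls, 514 (36.6%) were also called lower, where 1.72% of all were, and they made up 50.6% of the ozone falls. None was called in the opposite direction. The sign was kept on both ozone arrays by 89.4% of the rises and 92.4% of the falls, beside 24.3% and 22% of all sense probes higher and lower on both. Medians were smaller in ozone, at 1.04 for the rises and -1.12 for the falls, but these probes had been chosen for large ratios in air.

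By function, ratios in ozone were mostly below those in air, in probes that had been chosen for change in air. The ozone ratio was below the air ratio in 91 of the 101 probes of photosynthesis, of which 53 were called in ozone, and in 429 of all 582 list probes. The median of the antenna was 2.11 in ozone against 3.15 in air and that of photosystem II 2.40 against 2.92. For cuticle and flavonoid genes the medians were 1.42 against 1.32 and 1.25 against 1.22. No test of a difference between lists was made.

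For single genes, the difference between ozone and air was tested in limma. It was called for 261 sense probes (0.441%, with 0.242% higher and 0.199% lower in ozone), none of which passed the Benjamini-Hochberg adjustment, and 1449 had an unadjusted p under 0.05. It was called for 54 of the rises and 108 of the falls. Both sets were chosen on their ratio in air, which is part of the difference, so these counts are a description. The same holds for the genes below that were named for large ratios in air. In TT7 the ratio was 1.28 in ozone and 2.39 in air (unadjusted p = 0.0011 in limma). In ABC4 it was 2.56 in ozone and 3.63 in air (unadjusted p = 0.0027 in limma). In ERS1 it was -1.89 in ozone and -3.09 in air (unadjusted p = 0.0052 in limma). All 3 of these models moved in the same direction in both atmospheres, whereas the other TT7 model had -0.16 in ozone and 0.74 in air. MdEXLA rose in air but had -0.31 and 0.52 on the ozone arrays. Of the largest unnamed falls, MDP0000326576 had -5.97 in ozone and -5.90 in air. MDP0000235068 had -4.15 in ozone and -5.86 in air (unadjusted p = 0.0014 in limma).

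**Figure D5:**
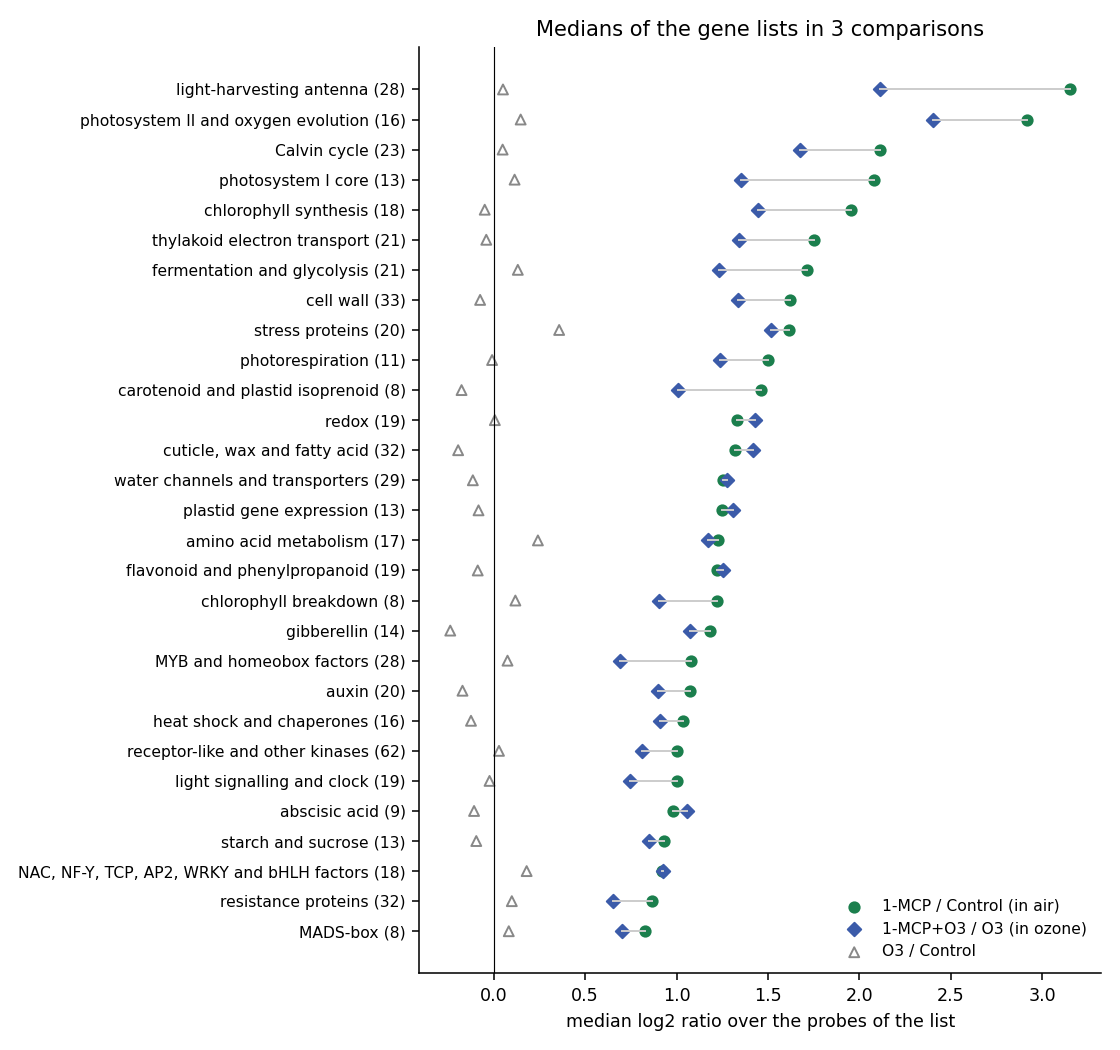
Median log2 ratio (horizontal axis) of each of the 29 lists for 1-MCP over Control (green circles), 1-MCP+O3 over O3 (blue diamonds) and O3 over Control (open triangles), with the number of probes in brackets. The first and second comparisons share no extract, whereas O3 over Control shares the Control and O3 fruit with them. The medians of O3 over Control lie between -0.24 and 0.36, and all others are above 0.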

How the data were processed

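Peel RNA was hybridised on two-colour Agilent arrays of 60-mer probes for apple gene models. The authors scanned the arrays, and the deposited Feature Extraction files give the median and background intensity of each spot in both channels, with a processed intensity already background-subtracted and dye-normalized by that software. From each array 14 columns were used and 19 measurement columns were not. Median intensities were corrected with normexp (offset 50), normalized within arrays by loess, turned to 1-MCP over Control, and averaged over the spots of a probe after outlier spots (3 on array A, 9 on array B) were left out. Ratios were fitted with lmFit and eBayes of limma 3.58.1 in R 4.3.3, with 2 arrays and 1 ratio each, Benjamini-Hochberg adjustment over all probes of the array, and calls at an unadjusted p under 0.01, the threshold in the methods of the study. Log2 signals of single samples are channel values after loess and Aquantile scaling over the 8 arrays. Tables and plots used Python 3.11.15, pandas 2.3.3 and matplotlib 3.10.9. The fit was tested on simulated data with 200 changed probes, whose spread was drawn from limma's own estimate and independently for each probe. Such data hold no error shared within an array, dye or replicate, so the test does not check the calls for it. The number of arrays limits the precision.

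Where a probe was not well above background in both samples of a group, a bound is given (at least N-fold). It was set on each array against the higher of the probe's own signal and the lowest signal well above background. Where the probe's own signal was the higher on both arrays, the bound is the measured ratio itself. The genes named were the 10 largest rises and falls, the 3 largest called rises of different name in each list, and those the study identifies by gene model. A further 21 models, such as HEMA1, PGR5, MYB96 and CUT1, were chosen from the lists after their values were seen. The members and lists were chosen with earlier results of these data known. Names came from the rows of the study's annotation table used here, and its values were not used. Alternatives changed the intensities, background correction, normalization, filter, moderation, samples in the fit, threshold and block, and left out each replicate.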

Additional observations from a re-analysis of the deposited data

Results flagged for a closer look

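In 17 of the 165 genes named by the rule, the effect of 1-MCP differed between ozone and air (unadjusted p under 0.01 in limma). The difference was called for 25 of the 582 list probes and for 0.441% of all sense probes. None passed the Benjamini-Hochberg adjustment. Some of the 17 genes were named for large ratios in air, which are part of the difference. The 2 arrays in air and the 2 in ozone lay on different slides, so slide and atmosphere cannot be told apart. Values are log2 ratios in ozone minus log2 ratios in air.

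Among the rises, the unknown protein MDP0000196174 differed by -1.19, the photosystem II family protein MDP0000906067 by -0.67, ABC4 (MDP0000156263) by -1.07, ASN1 (MDP0000125407) by -1.32 and TT7 (MDP0000616265) by -1.11, all with the smaller rise in ozone. Among the falls, ERS1 (MDP0000242413) differed by 1.20, the YABBY factor (MDP0000261432) by 1.75, MdBGal1 (MDP0000416548) by 1.21 and the mini zinc finger (MDP0000253357) by 0.90, all with the smaller fall in ozone. Of the 10 largest unnamed falls, 5 differed in the same sense, by 1.71 for MDP0000235068 and by 2.36, 2.65, 2.36 and 2.47 for the others.

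ARF9 (MDP0000194603), an auxin response factor, differed by 0.84, with the larger ratio in ozone, 1.24 against 0.40. A bZIP factor (MDP0000239026) and the homeobox gene KNAT1 (MDP0000280307) differed by -1.20 and -0.92.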

How the results depend on the processing

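The count for 1-MCP vs Control: called sense probes, 2744 as reported, moved with the processing. It was 4215 from processed signals, 810 with median centring, 665 without moderation, 6147 in a joint fit of all arrays with a dye term and 781 with array ratios left unturned for dye. It was 7232 at an unadjusted p under 0.05, 502 at 0.001, 1829 with a 2-fold minimum added and 0 after Benjamini-Hochberg adjustment. The adjusted count was 3271 in the joint fit with a dye term, 3086 from processed signals, 1172 in the joint fit, between these last values with trend and robust options, 902 with crossed and 369 with no replicate block, 43 without A, 5 without B, and 0 under the other alternatives that change the fit or its values. With the arrays left out in turn and the spread pooled over the other groups, the unadjusted count ran from 2038 (without replicate B) to 2100 (without replicate A). Of these, 1-MCP vs Control: called sense probes, lower in 1-MCP, numbered 868 without B, against 1404. Of the 136 called genes that were named by the rule, 23 lost their call without A, 27 without B, 56 with median centring and 122 without moderation. MdPME2, MdEXLA, CHS, ACD1, NCED4 and MYB61 lost it without either array, ATDI21 without A, and ADH1 (MDP0000491737) and the ERF MDP0000127134 without B. The 1-MCP effect in ozone minus in air, called for 261 probes, was called for 9 with median centring, 49 with only probes above background and 171 with trend and robust options. The causes of these shifts were not tested. Apart from the crossed block below, the other alternatives stayed within 1.5 times.

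Each array pairs the extracts of 1 replicate number, which the reported fit keeps through the ratio. The fit with no replicate block called 4028 probes and a crossed replicate block 5545.

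Single genes changed sign in 6 cases, 0 of them called. Without A and without B the log2 ratios were -0.023 and 0.97 for the ERF MDP0000932292, -1.78 and 0.61 for PAD4 (MDP0000770174), -2.18 and 1.01 for MdPOX (MDP0000209189), -0.24 and 0.060 for the bZIP MDP0000239026, -0.62 and 0.056 for a NAC factor (MDP0000258167), and -0.18 and 0.66 for an S1Fa-like factor (MDP0000276000). Medians stayed above 0 for 29 of 29 lists under the alternatives run on them, but moved by more than the spread between arrays in 26 lists with processed signals, 14 without A, 10 without B, 9 with median centring and 1 with no background correction.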

Other observations

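Of 144 apple miRNA probes on the sense strand, 1 was called, beside 4.63% of the sense probes of gene models, and it lies outside the gene models described above. Md_miR393e, of a miRNA family that targets auxin receptors in Arabidopsis, had log2 ratios of 0.99 and 1.18 on arrays A and B, with an unadjusted p of 0.0028 and an adjusted p of 0.227 in limma.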
